A study of Homo sapiens with 4 samples.

Results

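The LSM, Sm and snRNP protein genes comprised 33 genes chosen by symbol, 33 of the 27685 genes in the deposited tables, with 80 of the 63714 transcripts. They encode the Sm proteins and the like-Sm (Lsm) proteins, and the proteins particular to the U1, U2, U5, U7 and U11/U12 small nuclear ribonucleoproteins (snRNPs). The list was drawn up after LSM4 had been seen among the genes lower in both experiments, so every difference between Myc-TRIM40 and control cells below is a description and not a test of the list. RNA-seq was performed on HT-29, a human colorectal adenocarcinoma line used as a model of colonic epithelium. Wild-type cells carrying a control vector (Mock) were compared with cells stably overexpressing TRIM40, an E3 ubiquitin ligase, as an N-terminal Myc fusion (Myc-TRIM40). The study's methods describe retroviral transduction and puromycin selection, which the control cells would share, and neither group received a further treatment. There were 2 independent experiments with 1 library per condition in each, giving 2 libraries per condition and 4 in all.

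Sm proteins form a ring around the U1, U2, U4 and U5 snRNAs, and the assembled snRNPs recognise splice sites and build the spliceosome. Lsm proteins form related rings. The ring that contains LSM8 holds the 3′ end of U6 snRNA in the nucleus, and the ring that contains LSM1 in its place binds the shortened tails of mRNAs in the cytoplasm and promotes decapping. LSM2 to LSM7 are common to both rings. LSM10 and LSM11 replace a pair of Sm proteins in the U7 snRNP, which processes histone pre-mRNA, whereas LSM12, LSM14A and LSM14B carry an Lsm domain but are not subunits of these rings.

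Libraries held between 60954602 and 67424698 reads, and the listed genes took between 0.424% and 0.499% of them. TRIM40 had 0 reads in each control library, and 272646 (experiment 1) and 110665 (experiment 2) reads where it was overexpressed. Of 8 colonic epithelial markers, 7 had at least 1 FPKM (fragments per kilobase of transcript, scaled to library size) in all libraries, with a summed level between 6364 and 8960 FPKM, and CDX1 stayed between 0.323 and 0.414 FPKM. The 6 fibroblast markers were each below 1 FPKM, with a summed level between 0.891 and 1.39 FPKM. Among 6 leukocyte markers, 3 had at least 1 FPKM in all libraries. These were LYZ (1356 to 1860 FPKM), CD68 (5.86 to 11.9 FPKM) and CD14 (1.43 to 2.61 FPKM). The other 3 were below 1 FPKM, with PTPRC at most 0.0118 FPKM, CD79A at most 0.228 FPKM and CD3E listed at 0. The sum over the 6 markers, 1365 to 1869 FPKM, was mostly LYZ. The control library of experiment 2 stood apart by transcript length. Among the 11801 genes with a mean of at least 1 FPKM, transcript length had a Spearman correlation of -0.55 with the log2 ratio between both controls (experiment 2 over 1) and of -0.21 with that between both Myc-TRIM40 libraries. Both are taken across genes, and genes are no independent replicates. Most listed genes have short transcripts, so each ratio is given for both experiments and, where it matters, after the length trend was taken out.

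In Myc-TRIM40 cells, LSM4 was the listed gene with the lowest level relative to control in both experiments, at 0.467 and 0.290 times the control value of FPKM + 1. SNRNP25 followed at 0.728 and 0.580 times. In experiment 1 the other 30 genes with reads lay between -0.27 (LSM7) and 0.27 (SNRNP27) on the log2 scale of FPKM + 1, and in experiment 2 most short genes had ratios below 0 while PRPF8 and SNRNP200, which have long transcripts, had ratios of 1.15 and 1.02. The median over the 32 genes was -0.03 in experiment 1 and -0.37 in experiment 2, where that over the 11801 genes was 0.01 and 0.10. Ratios were below 0 in both experiments for 14 of the 32 genes, where 20.85% of all genes were, above 0 in both for 1, and of opposite sign for 17. In TPM, which is scaled to a common total over transcripts, the median over all genes in experiment 2 was 0.33 in place of 0.10, so that the signs of small ratios depend on the scale, and 21 of the 32 genes were below 0 there in place of 25, with a median of -0.15 in place of -0.37. Of the 33 genes, 32 had reads and were tested by edgeR's quasi-likelihood test with the experiment number as a block. At an adjusted p under 0.05 (edgeR, Benjamini-Hochberg adjustment over 14868 genes), 0 of the 32 were higher and 0 were lower, where 0.0404% of all genes tested were higher and 0.0202% lower. Without adjustment, at a p under 0.05, 0 were higher and 3 were lower (LSM4, LSM7 and SNRNP25), against 3.41% and 1.13% of all genes. DESeq2 called 1 listed gene, LSM4, lower at an adjusted p under 0.05. Over the 14868 genes it called 45 higher and 9 lower, where edgeR called 6 and 3. Nothing is read from these counts, since the list was chosen on the same contrast.

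**Figure D1:**
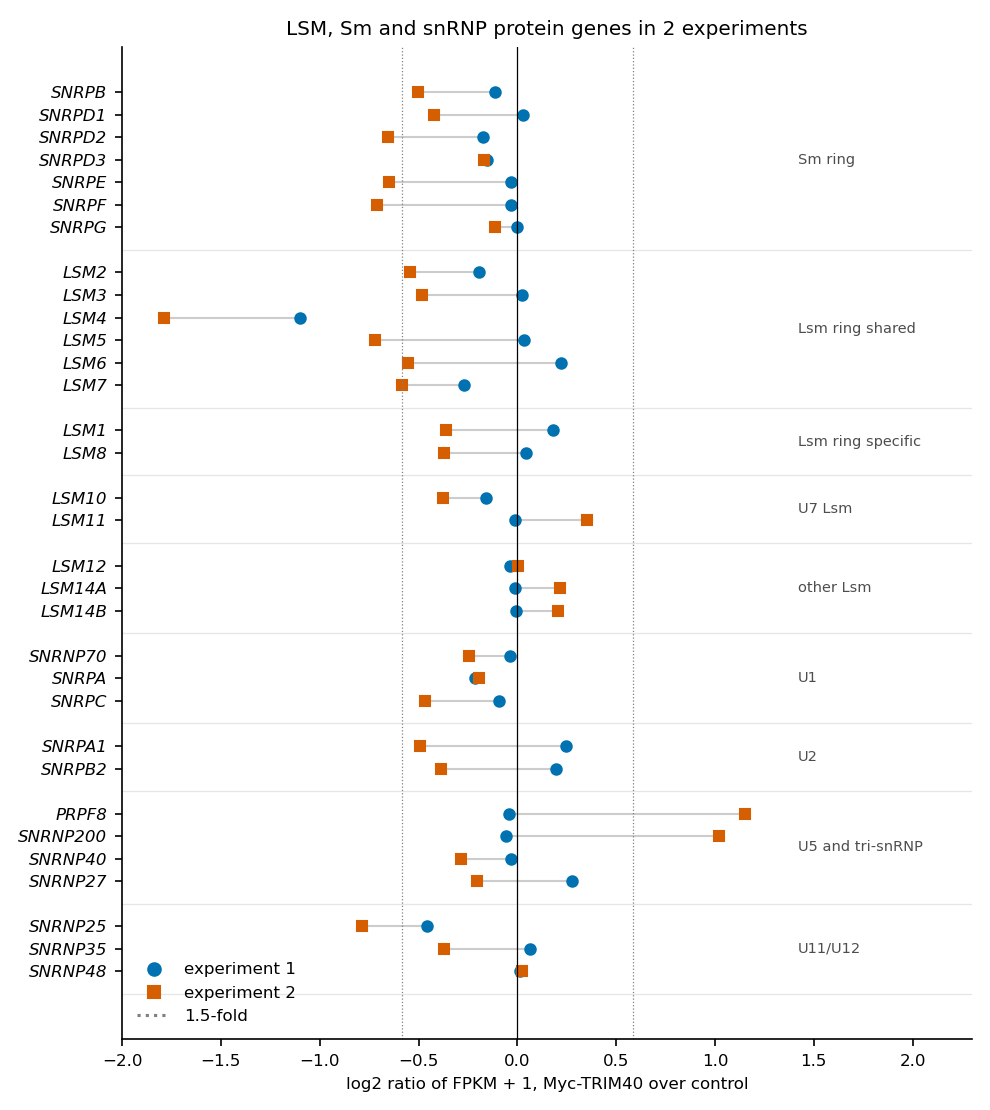
Log2 ratio of FPKM + 1, Myc-TRIM40 over control, for the 32 listed genes with reads, grouped by role on the right. Circles are experiment 1 and squares experiment 2, with 1 library per condition in each, and dotted lines mark 1.5-fold. LSM4 lies left of 1.5-fold in both experiments, and PRPF8 and SNRNP200 lie near 0 in experiment 1 and right of 1.5-fold in experiment 2.

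LSM4 is a subunit of both Lsm rings. In the files' coordinates (hg19 per the labels) it lies on chromosome 19 from 18417040 to 18434001 and overlaps no other gene with at least 10 reads. Its control libraries had 11426 reads in experiment 1 and 23538 reads in experiment 2, and its Myc-TRIM40 libraries had 5275 and 6226 reads. Per length, experiment 1 gave 100.1 FPKM in control and 46.2 FPKM in Myc-TRIM40 cells, and experiment 2 gave 186.3 and 53.3 FPKM. Both control values were thus above both Myc-TRIM40 values, and the controls differed from each other by more than the Myc-TRIM40 libraries did. As in any bulk sample, fewer cells expressing a gene and less RNA per cell cannot be told apart. The log2 ratios of FPKM + 1 were -1.10 and -1.79, which placed LSM4 at positions 25 and 9 from the lowest among the 11801 genes. The blocked fit gave a log2 fold change of -1.54 with a standard error of 0.26. This error was derived from the F statistic of the fit, whose variance was estimated partly across genes. It does not measure the spread of the ratios between the 2 experiments. With the control of experiment 2, which stood apart by length, and the block both left out, the log2 fold change was -1.03 with a standard error of 0.34, against -1.62 with the block alone left out. That fit has 1 control library, which is assumed to vary like the Myc-TRIM40 libraries.

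The tables divide LSM4 reads between 2 RefSeq transcripts of nearly the same length, a major one of 1825 bases and a minor one of 1783 bases. In experiment 1 the major transcript was at 96.9 FPKM in control and 42.0 FPKM in Myc-TRIM40 cells, and in experiment 2 at 169.2 and 47.9 FPKM. The minor transcript was at 3.30 and 4.16 FPKM in experiment 1, and at 17.1 and 5.36 FPKM in experiment 2. In experiment 1 the minor transcript was therefore not lower in Myc-TRIM40 cells, and the gene's lower level lay in the major one. The minor transcript took 3.22% of LSM4 reads (95% Wilson interval 2.91% to 3.56%) in the control library and 8.82% (8.08% to 9.61%) in the Myc-TRIM40 library of experiment 1. The shares were 8.98% (8.62% to 9.35%) and 9.86% (9.15% to 10.63%) in experiment 2. Its share in the control of experiment 1 thus lay outside the intervals of the other 3 libraries. These intervals cover counting error only, and the reads were estimated among transcripts that share sequence.

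SNRNP25, a protein of the U11/U12 snRNP of the minor spliceosome, lies on chromosome 16 from 103829 to 107669 (hg19). Experiment 1 gave 48.1 FPKM in control and 34.7 FPKM in Myc-TRIM40 cells, and experiment 2 gave 71.7 and 41.2 FPKM, with read numbers of 3266 and 2365 in the first experiment and 5405 and 2872 in the second. Both control values were above both Myc-TRIM40 values, as for LSM4. The blocked log2 fold change was -0.72 with a standard error of 0.22. At a threshold of 1.5-fold on FPKM + 1 the ratio of SNRNP25 passed in experiment 2 only, so LSM4 was the single listed gene lower by 1.5-fold in both experiments, where 0.11% of the 11801 genes were, and 0 listed genes were higher in both, where 0.568% were.

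The promoters of LSM4 and SNRNP25, the pair with the lowest mean ratio, are shown to give the sequence context of these genes. The 250 bases before the annotated start were taken from RefSeq on GRCh38.p14, a different build from that of the files, and run 5′ to 3′ on the gene's strand. LSM4 is on the minus strand at chr19:18323077-18323326, and SNRNP25 is on the plus strand at chr16:53578-53827. Capitals mark every match to CCAAT or to GGGCGG (a GC box) on either strand.
LSM4: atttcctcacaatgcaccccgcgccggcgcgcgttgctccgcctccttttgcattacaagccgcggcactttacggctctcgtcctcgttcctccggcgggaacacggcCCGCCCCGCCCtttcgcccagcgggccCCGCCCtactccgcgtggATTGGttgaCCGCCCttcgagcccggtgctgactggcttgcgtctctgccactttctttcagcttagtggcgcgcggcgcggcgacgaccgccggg
SNRNP25: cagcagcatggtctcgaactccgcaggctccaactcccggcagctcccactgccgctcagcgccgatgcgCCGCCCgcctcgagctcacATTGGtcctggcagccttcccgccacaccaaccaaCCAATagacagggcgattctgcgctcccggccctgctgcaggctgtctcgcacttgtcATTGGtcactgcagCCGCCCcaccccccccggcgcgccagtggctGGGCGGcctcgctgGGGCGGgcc
The LSM4 window held 1 CCAAT match and 4 GGGCGG matches, and the SNRNP25 window held 3 and 4, of which some GGGCGG matches overlap or abut. Of all 35116 promoter windows of the same length, 32.0% held CCAAT and 42.6% held GGGCGG. For 28 of the 33 listed genes a promoter was given, in 38 windows. Among these windows 39.5% held CCAAT and 47.4% held GGGCGG, while CCGGAAG, the core of ETS factor sites, was found in 34.2% of them against 8.52% of all windows, on either strand. The CCGGAAG windows belonged to 11 genes, among them SNRPB, SNRPE, SNRPD2 and SNRNP200, and neither LSM4 nor SNRNP25. TATAAA was found in 2.63% of the listed genes' windows and 10.7% of all windows, and CACGTG in 2.63% and 6.34%. These matches are descriptions of letters and not of bound sites.

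The remaining shared subunits of the Lsm rings had log2 ratios between -0.27 (LSM7) and 0.22 (LSM6) in experiment 1 and below 0 in experiment 2. LSM5 was at 19.8 FPKM in control and 20.3 FPKM in Myc-TRIM40 cells of experiment 1, and at 57.5 and 34.5 FPKM in experiment 2. In the same order LSM6 was at 12.7 and 15.0 FPKM, then at 32.6 and 21.9 FPKM, and had the highest mean ratio of this group. For both genes the 2 libraries of experiment 2 were above the 2 libraries of experiment 1, so that conditions overlapped. LSM2, LSM3 and LSM7 had log2 ratios between -0.27 and 0.02 in experiment 1 and between -0.58 and -0.48 in experiment 2. LSM7 is the only one of these 3 whose groups did not overlap, with 106.3 and 136.3 FPKM in the control libraries and 88.0 and 90.5 FPKM in the Myc-TRIM40 libraries. In all, 7 of the 32 genes (SNRPD2, LSM4, LSM7, LSM10, SNRNP70, SNRPA and SNRNP25) had both Myc-TRIM40 values below both control values, against 6.74% of the 11801 genes, and 0 had them above, against 12.8%. All 7 have a transcript length under 2000 bases, where 79.39% of all genes had a ratio below 0 in experiment 2. The share of such genes without overlap was not computed. These counts hold in FPKM, and overlap was not examined in TPM. There SNRPA in experiment 2 was above its control, with a log2 ratio of 0.04, and SNRNP70 was nearly level, at -0.0039 and -0.0118 in the 2 experiments.

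LSM1, which marks the cytoplasmic decapping ring, was at 10.6 FPKM in control and 12.1 FPKM in Myc-TRIM40 cells of experiment 1, and at 19.7 and 15.1 FPKM in experiment 2. It overlaps BAG4, which has reads of its own. LSM8, which marks the nuclear U6 ring, went from 3.60 to 3.74 FPKM and from 6.88 to 5.09 FPKM. Neither ring-specific subunit showed the pattern of LSM4, and the ranges of both conditions overlapped. The low FPKM of LSM8 rests on its annotated length of 12520 bases, since it had 2816 reads in the control of experiment 1 where LSM2, with 880 bases, had 2666 reads and 48.4 FPKM. GENCODE 29 gives 1305 bases for the transcript matched to the same RefSeq accession, so the level of LSM8 per length is uncertain.

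**Figure D2:**
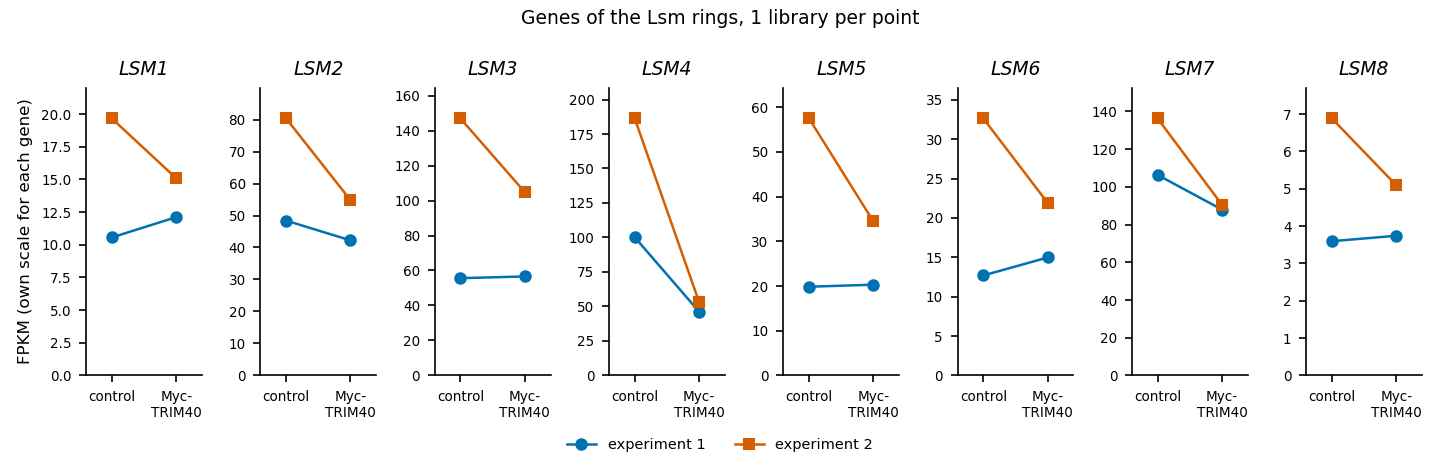
FPKM of the 8 genes LSM1 to LSM8 in control and Myc-TRIM40 libraries, with a vertical scale from 0 for each gene. Circles are experiment 1 and squares experiment 2, each point is 1 library, and lines join the libraries of 1 experiment. The line of LSM4 goes down in both experiments, to 46.2 and 53.3 FPKM, whereas the lines of LSM3 and LSM5 are almost flat in experiment 1 and go down in experiment 2.

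Levels of the Sm ring genes per length varied widely. SNRPD2 (SmD2) and SNRPB (SmB/B′) had the highest levels of the list, with 378.5 and 274.5 FPKM in the control of experiment 1, and the 7 genes with reads summed to 1057 and 984 FPKM in control and Myc-TRIM40 cells of experiment 1 and to 1667 and 1167 FPKM in experiment 2. SNRPN, which encodes the SmB-related SmN, had 0 reads in each library. SNRPD2 went from 378.5 to 334.9 FPKM and from 490.8 to 311.1 FPKM, with groups that did not overlap. SNRPE went from 53.5 to 52.3 FPKM and from 122.8 to 78.0 FPKM, and SNRPF from 135.1 to 131.9 FPKM and from 262.3 to 160.0 FPKM. SNRPG had the highest mean ratio of the ring, at 116.7 and 116.8 FPKM in experiment 1 and 206.1 and 190.4 FPKM in experiment 2. In experiment 1 the 7 genes thus differed by between -0.18 and 0.03 on the log2 scale, and in experiment 2 all 7 ratios were below 0, from -0.71 to -0.11, although SNRPG (0.12) and SNRPD3 (0.06) were above 0 in TPM and SNRPG (0.39) after correction for length. SNRPD2, SNRPE and SNRPF passed 1.5-fold in experiment 2 and not in experiment 1.

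The assignment of SNRPD2 reads to its 2 transcripts varied more between the controls than between conditions in experiment 1. The shorter transcript, of 675 bases, took 22.42% of SNRPD2 reads (95% Wilson interval 21.79% to 23.06%) in the control and 21.85% (21.19% to 22.52%) in the Myc-TRIM40 library of experiment 1. The shares were 6.06% (5.77% to 6.37%) and 19.49% (18.85% to 20.16%) in experiment 2. The control of experiment 2 was the library apart from the other 3.

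Proteins particular to single snRNPs did not share 1 pattern. For U1, which recognises the 5′ splice site, SNRPC went from 90.4 to 84.7 FPKM and from 150.8 to 108.9 FPKM, and SNRNP70 from 190.5 to 185.9 FPKM and from 208.5 to 175.7 FPKM. All 3 U1 genes had ratios below 0 in both experiments, between -0.21 and -0.04 in experiment 1 and between -0.47 and -0.19 in experiment 2, except that SNRPA was at 0.04 in TPM in experiment 2. For U2, which binds the branch site, the signs differed between experiments. SNRPA1 went from 100.3 FPKM in control to 119.0 FPKM in Myc-TRIM40 cells of experiment 1 and from 192.3 to 136.6 FPKM in the second experiment, and SNRPB2 from 25.0 to 28.8 FPKM and from 70.5 to 53.8 FPKM. Both U2 genes were higher in each library of experiment 2 than in either library of experiment 1.

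The U5 proteins PRPF8, the core scaffold of the spliceosome, and SNRNP200, the helicase that unwinds U4 from U6, were set apart by experiment 2. PRPF8 was at 75.7 FPKM in control and 73.5 FPKM in Myc-TRIM40 cells of experiment 1, and at 21.2 and 48.4 FPKM in experiment 2. SNRNP200 went from 120.5 to 115.8 FPKM and from 37.8 to 77.6 FPKM. For both genes the control of experiment 2 was the lowest of the 4 libraries and the Myc-TRIM40 library of the same experiment lay below both libraries of experiment 1. Their transcripts of 7295 and 7219 bases are, after LSM8, the longest of the list. The smaller U5 protein SNRNP40 went from 52.4 to 51.2 FPKM and from 74.2 to 60.7 FPKM, with a transcript of 1624 bases. At 1.5-fold, 0 listed genes were higher and 1 was lower in experiment 1, where 3.01% and 0.822% of the 11801 genes were. In experiment 2, 2 were higher and 6 lower, where 10.7% and 3.42% were.

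The U7 and non-ring Lsm genes did not pass 1.5-fold on FPKM + 1 in either experiment. LSM10 went from 29.2 to 26.1 FPKM and from 36.0 to 27.5 FPKM, and LSM11, with a transcript of 6584 bases, from 2.72 to 2.69 FPKM and from 2.19 to 3.08 FPKM. The log2 ratio of LSM11 in experiment 2 was 0.35, 0.61 in TPM and -0.11 after correction for length. LSM14A, a component of cytoplasmic processing bodies, went from 58.2 to 57.8 FPKM and from 60.6 to 70.5 FPKM, and LSM12 from 28.4 to 27.6 FPKM and from 33.9 to 34.0 FPKM. The other U11/U12 genes did not follow SNRNP25. SNRNP48 went from 6.84 to 6.90 FPKM and from 8.78 to 8.93 FPKM, and SNRNP35, which overlaps RILPL1, had log2 ratios of 0.07 and -0.37.

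The difference in Myc-TRIM40 over control ratios between experiments followed transcript length, for the list as for all genes. Of the 32 genes, 22 had a transcript length (weighted by FPKM over transcripts) under 2000 bases and 10 were longer. In experiment 2, 22 of the 22 shorter genes had a log2 ratio below 0, with a median of -0.47 (19 of 22 in TPM and 18 of 22 after correction for length), and of the 10 longer ones 3 did, with a median of 0.11. Among all genes with a mean of at least 1 FPKM, 79.39% of the 3596 shorter and 22.08% of the 8205 longer genes had a ratio below 0 in experiment 2, with medians of -0.25 and 0.22. In experiment 1, 13 of the 22 shorter and 7 of the 10 longer listed genes had a ratio below 0, and the medians were -0.03 and -0.01. Across the 32 genes the Spearman correlation of the ratio with length was 0.05 in experiment 1 and 0.61 in experiment 2, and across all genes it was 0.08 and 0.69. These describe genes measured in the same libraries and carry no p-value.

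**Figure D3:**
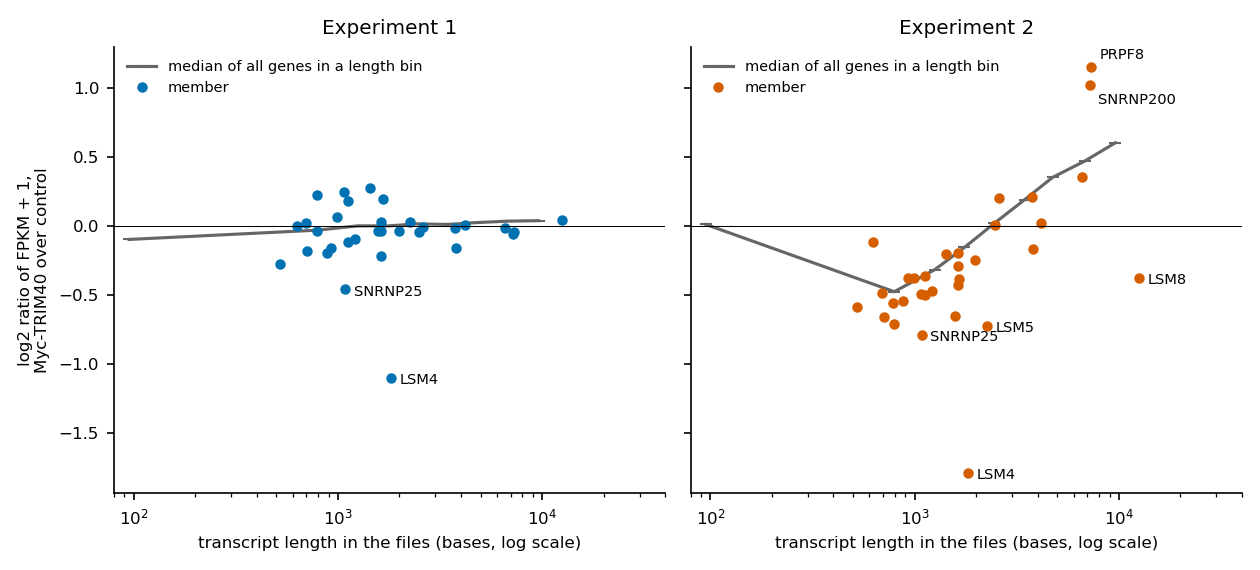
Log2 ratio of FPKM + 1, Myc-TRIM40 over control, against transcript length in bases on a log scale, in experiment 1 (left) and experiment 2 (right). Points are the 32 listed genes and the line joins the medians of all genes with a mean of at least 1 FPKM in 9 length bins. The line is nearly flat in experiment 1 and runs from -0.47 at 500 to 1000 bases to 0.60 above 8000 bases in experiment 2, and LSM4 lies under it in both.

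The same conditions were also compared between experiments, which uses no contrast of Myc-TRIM40 with control. The control of experiment 2 was above that of experiment 1 for 28 of the 32 genes, with a median log2 ratio of 0.62, and the exceptions were PRPF8 (-1.79), SNRNP200 (-1.65), LSM14B (-0.35) and LSM11 (-0.22). The Myc-TRIM40 library of experiment 2 was above that of experiment 1 for 27 of the 32, with a median of 0.26. The corresponding medians over all genes were -0.04 and 0.00. Among shorter genes the medians were 0.77 for the listed genes and 0.36 for all genes in the controls, and 0.26 and 0.09 in Myc-TRIM40 cells. Among longer genes they were 0.15 and -0.21 in the controls, and 0.26 and -0.04 in Myc-TRIM40 cells. The listed genes thus lay above all genes of either length class in both conditions. LSM4 was 0.89 higher between the controls and 0.20 higher between the Myc-TRIM40 libraries on this scale. With 1 library on each side these differences have no replicate check, and what sets the control of experiment 2 apart was not tested.

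**Figure D4:**
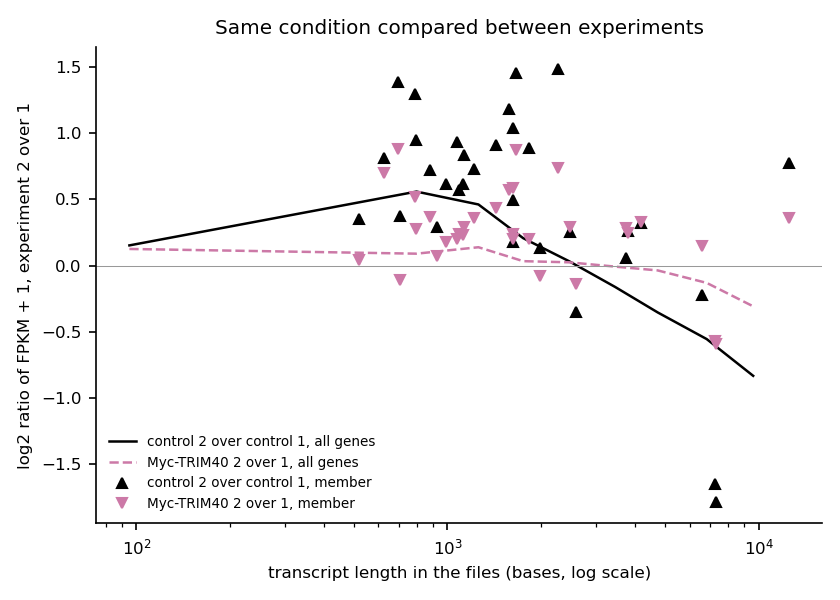
Log2 ratio of FPKM + 1 of experiment 2 over experiment 1 within a condition, against transcript length in bases on a log scale. Upward triangles are listed genes in control libraries and downward triangles are listed genes in Myc-TRIM40 libraries, and the solid and dashed lines join medians of all genes in 9 length bins. Most listed genes lie above 0, and PRPF8 and SNRNP200 lie at -1.79 and -1.65 in the controls.

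After each experiment's length trend was subtracted, LSM4 still had the lowest value of the list, at -1.11 in experiment 1 and -1.66 in experiment 2, positions 24 and 10 from the lowest among the 11801 genes. SNRNP25 was at -0.45 and -0.43. The median of the 32 genes was -0.04 in experiment 1 and -0.12 in experiment 2, compared with -0.37 in experiment 2 before, and 17 of the 32 were below 0 in both experiments, against 26.59% of all genes. LSM4 was again the only listed gene past 1.5-fold in both experiments, where 0.0847% of all genes were lower and 0.458% higher. In experiment 2 alone, LSM5 (-0.70) and LSM8 (-1.03) lay past 1.5-fold below the trend and PRPF8 (0.65) above it, and SNRPD2, SNRPE, SNRPF, SNRNP25 and SNRNP200 no longer did. From the lowest among the 11801 genes, LSM8 was at position 53, LSM5 at 122 and PRPF8 at 11426. The share of all genes past 1.5-fold in experiment 2 alone after correction was not computed. The corrected values depend on the annotated lengths. GENCODE lengths were used after seeing the data, for the listed genes only and without refitting the trend. At these lengths LSM8 was at -0.09 in experiment 2 and no longer passed. SNRPD1 (-0.78, from -0.24) and LSM3 (-0.73, with 3815 bases in place of 695) newly passed. No share of all genes is available at GENCODE lengths, since only listed genes were given them. LSM4 was at -1.11 and -1.68 with these lengths and was the only listed gene past 1.5-fold lower in experiment 1. An edgeR fit with each library's length trend as an offset, chosen after seeing the data, called 0 of the 32 genes and gave LSM4 a log2 fold change of -1.44 with a standard error of 0.17.

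**Figure D5:**
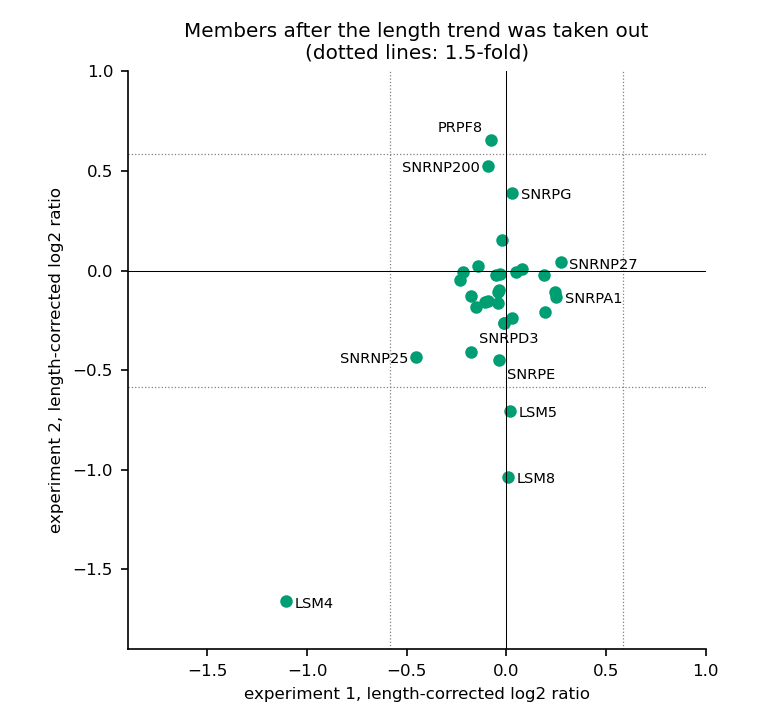
Log2 ratio of FPKM + 1, Myc-TRIM40 over control, after the trend on transcript length was taken out, with experiment 1 on the horizontal axis and experiment 2 on the vertical axis for the 32 listed genes. Dotted lines mark 1.5-fold. LSM4 lies at -1.11 and -1.66, past 1.5-fold on both axes. SNRNP25, at -0.45 and -0.43, passes on neither axis, and LSM5, LSM8 and PRPF8 pass on the vertical axis only.

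The other genes of these pathways were taken from 6 lists with 69 genes in all, each of which was in the tables and was tested. At an adjusted p under 0.05, 0 were higher and 0 lower (edgeR, Benjamini-Hochberg adjustment over 14868 genes), 0 had an unadjusted p under 0.05 in either direction, and 0 passed 1.5-fold in both experiments. The median log2 ratio over the 69 genes was -0.04 in experiment 1 and 0.14 in experiment 2. Among 15 genes of snRNP assembly, which loads Sm rings onto snRNA, 14 had a ratio below 0 in experiment 1 and 9 in experiment 2. Of the 11801 genes, 46.72% and 39.55% did. Counts after correction for length were not made for these lists. The lowest was GEMIN7, from 18.4 to 16.8 FPKM and from 30.6 to 20.9 FPKM, and the highest was TGS1, the cap hypermethylase, from 7.27 to 7.01 FPKM and from 5.87 to 8.57 FPKM. Of 16 genes of the U4/U6.U5 tri-snRNP, the lowest was TXNL4A, a small U5 protein, with log2 ratios of opposite sign, 0.52 and -1.01. The highest was SART3, a U6 recycling factor, from 25.2 to 24.6 FPKM and from 17.3 to 24.8 FPKM.

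Of 14 U2 genes, SF3B5 was lowest, from 122.6 to 105.1 FPKM and from 153.2 to 95.0 FPKM, and U2AF2 highest, from 159.6 to 149.6 FPKM and from 107.8 to 171.3 FPKM. Of 8 minor spliceosome genes, which are the functional neighbours of SNRNP25, ARMC7 was lowest, with log2 ratios of -0.16 and -0.22, and RNPC3 highest, with 0.21 and 0.39. ARMC7, RNPC3, GEMIN7 and TGS1 each overlap another gene with reads. Among 7 genes of U7 and histone pre-mRNA processing, SLBP, the histone stem-loop binding protein, went from 49.0 to 47.4 FPKM and from 90.7 to 37.2 FPKM, and CASP8AP2 had the highest mean ratio, with -0.06 and 0.61. Among 9 decapping genes, the partners of the LSM1 ring, 0 had a ratio below 0 in experiment 2, where 39.55% of the 11801 genes did. In experiment 1, 4 did, where 46.72% of the 11801 genes did. Correction for length moved several of these values in experiment 2, where CASP8AP2 was at 0.14, TGS1 at 0.14, SF3B5 at -0.22 and DCP2 at -0.52 after it. SLBP hardly moved, with a log2 ratio of -1.26 before and -1.24 after correction. PATL1, which bridges that ring to the decapping enzyme, was highest, from 36.7 to 39.5 FPKM and from 15.5 to 28.6 FPKM, and DCP2, the decapping enzyme, lowest, with -0.04 and 0.07. After correction for length PATL1 was at 0.57 in experiment 2.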

How the data were processed

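Per RefSeq transcript, the authors deposited a read count (whole numbers, estimated where transcripts share reads), FPKM, TPM in the second experiment, and other columns that include transcript length. TPM of experiment 1 was computed from the deposited FPKM. The submitters' processing notes name HISAT2 2.1.0, StringTie 1.3.4d and hg19, and the labels a TruSeq stranded mRNA kit. The annotation release and filters are not given in the sources used here.

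Transcripts were summed per gene. Reads were tested with edgeR 4.0.16 (quasi-likelihood, R 4.3.3, filterByExpr, TMM, Benjamini-Hochberg adjustment) over 14868 genes. The experiment number entered as a block because the study took genes that moved in common in its 2 experiments. The common dispersion was estimated at 0.0484, and 1 residual degree of freedom remained. Standard errors given for edgeR fits were the absolute log2 fold change divided by the square root of F. Variance was moderated across genes, with a median of 7.44 prior degrees of freedom in the main fit. The pairing was checked across 14868 genes, where deviations of same-numbered libraries correlated at 0.45. Log2 ratios of FPKM + 1 were formed within experiments and understate changes at low levels. The length trend was a lowess fit (span 0.3) over genes with a mean of at least 1 FPKM. Overlapping genes were noted where they held at least 10 reads. At this depth counting error is small, and the 2 experiments limit precision. With 2 libraries on each side no exact permutation test can reach 0.05, and none was made.

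Members and lists were chosen with earlier results of these data known. By rule, library values were given for members past 1.5-fold in either experiment or highest or lowest of their role group, and for the highest and lowest gene of each pathway list. Values of other members and the names of overlapping genes were added after they were seen. GENCODE 29 lengths were matched by RefSeq accession for 32 of 32 genes with reads. The deposited length was between 0.182 (LSM3) and 9.59 (LSM8) times the GENCODE length. The length trend was not refitted, so listed genes at GENCODE lengths were read off the trend over deposited lengths.

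Alternatives were no block, DESeq2 1.42.0, limma 3.58.1 (log2 of FPKM + 1), upper-quartile scaling, no filter, a pseudocount of 0.1, TPM, TMM-scaled reads, median centring, removal of the length trend, a minimum mean of 1 FPKM, overlapping members left out, a 2-fold threshold and each experiment left out. The length offset, GENCODE lengths and leaving out both the block and the control of experiment 2 were chosen after seeing the data. On simulated counts for this contrast with 200 changed genes among 14721, the blocked fit found 102 of 107 genes changed 4-fold and 16 of 93 changed 2-fold, and called 4 unchanged genes. The simulation gave all genes the same dispersion and averaged control and Myc-TRIM40 levels within each experiment. It thus held no length difference of the control of experiment 2, and these numbers are not detection rates for the real libraries.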

Additional observations from a re-analysis of the deposited data

How the results depend on the processing

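LSM4 had a log2 fold change of -1.54, and it kept its sign under the alternatives run. It passed the adjusted threshold in DESeq2 (-1.57), the 1 listed gene called there and lower, and in no other fit, and it was -1.62 with no replicate block, -1.03 with neither the block nor the control of experiment 2, and between -1.92 and -1.14 with 1 experiment left out, where 1 library per condition gives no test. The genes called, 6 higher and 3 lower, became 0 and 0 with no replicate block and with no filter. They became 45 and 9 with DESeq2, 3 and 0 with limma, and 1 and 0 with the length offset. On simulated counts the edgeR fit with no block found 0 of 200 changed genes. That fit therefore cannot show whether the block matters for calls among the listed genes. The median log2 ratio of the listed genes was -0.37 in experiment 2. It became -0.12 with the length trend taken out, -0.10 at GENCODE lengths and -0.15 in TPM. With TMM-scaled reads it was -0.51 and with median centring -0.48. In TPM the median over all genes also moved, from 0.10 to 0.33. The genes past 1.5-fold in both experiments, 1 lower and 0 higher, kept their counts under pseudocount, unit, centring, length, filter, overlap and 2-fold threshold, and with only 1 experiment counted ranged from 1 to 6 lower and from 0 to 2 higher. Of 64 values by gene and experiment, 55 kept their sign with the length trend taken out, 57 with TPM, 58 with TMM-scaled reads, 60 with median centring and 64 with a pseudocount of 0.1. Why the counts of calls move was not tested.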
